A study of Mus musculus with 27 samples.

Results

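Voltage-gated sodium, calcium and potassium channels, pacemaker channels and the other potassium channels set the resting potential, the upstroke, the plateau and the repolarization of a heart cell. In a cardiomyocyte the L-type calcium current enters during the plateau, transient outward and delayed rectifier potassium currents end the action potential, inward rectifiers hold the resting potential, and pacemaker (HCN) and T-type calcium channels are typical of cells that fire on their own. Fibroblasts carry other channels, such as calcium-activated potassium channels. The genes described here are those with a single symbol that begins with Kcn or Cacn, is Hcn with a number, or is Scn with a number followed by a or b. There were 130 such genes among the 19938 genes with a symbol on the array. They were covered by 149 probe sets, and where a gene had several (7 genes), the one with the highest mean over all arrays stood for it.

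RNA was collected at Day 3 from 27 cultures, 3 in each of 9 groups, and each culture was read on its own Affymetrix Mouse Gene ST array. Mouse embryonic fibroblasts (MEFs, from mid-gestation embryos of mixed background with the heart removed) either received HNGMT, the lentiviruses for Hand2, Nkx2-5, Gata4, Mef2c and Tbx5, or did not (0TF). Each was grown with 2 ng/mL TGFβ1, with 0.5 µM SB431542 (SB, an inhibitor of the type I TGFβ receptor kinase) or with the DMSO vehicle. Cardiac fibroblasts (CFs) from adult mice received HNGMT with 2 ng/mL TGFβ1, 5 µM SB or DMSO, and there was no CF group without the factors. All 27 cultures carried lentiviruses for rtTA and for a Troponin T-GCaMP reporter and received 2 µg/mL doxycycline from Day 0, and the molecules or the vehicle were added at Day -1. The 0TF cultures are called empty vector in one label field and no factor treatment in another, and the protocol text attached to the CF samples describes MEFs. According to the labels these are biological replicates made separately, but the number of embryos or adult mice behind the 3 cultures of a group is not given, so the p-values may measure only the spread between cultures. As each array read a whole culture, fewer cells of a type and less RNA per cell cannot be told apart in any value below.

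All values are log2 intensities as deposited by the authors, so that a difference of 1 stands for a fold of 2. Array medians over all probe sets were 7.83 to 7.91 in MEFs and 7.36 to 7.43 in CFs, and levels are not tested between MEFs and CFs, as age, tissue and array median differ together. The fibroblast marker list had all 9 genes above the array median in 8 groups and 8 of 9 in HNGMT+TGFβ1 CFs. Endothelial markers had 9 or 10 of 10 above the median in CF groups and 1 to 3 of 10 in MEF groups. Skeletal muscle markers had 5 of 10 above it in every group, neuronal markers 1 to 3 of 11, leukocyte markers 1 to 4 of 10 and glial markers 0 of 5. HNGMT+SB replicate 3 of the CFs stood apart from the other 2 cultures of its group, with mean endothelial marker levels of 9.37 against 10.95 and 10.94, cardiomyocyte marker levels of 8.88 against 9.69 and 9.75, and fibroblast marker levels of 11.60 against 10.94 and 10.95. CF results are therefore given with and without it where it changes a call.

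Most channel genes gave a dim signal. The array median served as the level above which a value was read, and 59 of the 130 genes (45.4%) were above it in at least 1 group, against 63.6% of all genes. Of these, 22 were above it in all 9 groups, and 71 genes were above it in none. Kcnf1 lay closest above it, with 0.05 over the median in its highest group, and Kcnk4 closest below, with -0.03. With the 95th percentile of 1027 olfactory receptor genes as the level instead, 86 of the 130 were above it in some group. Where a called gene lay at or under this olfactory level on all arrays of a group, its change is also given as a lower limit, the mean of the brighter group minus the mean, over the arrays of the dim group, of the higher of the olfactory level and the gene's own value. Sodium channel pore subunits had 2 of 8 genes above the median (Scn7a and Scn2a), calcium channel pore (alpha1) subunits 5 of 10, alpha2delta subunits 4 of 4, inward rectifiers 5 of 15, 2-pore-domain channels 6 of 14, and voltage-gated potassium pore subunits 15 of 35. The map of levels shows these 59 genes by class.

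**Figure D1:**
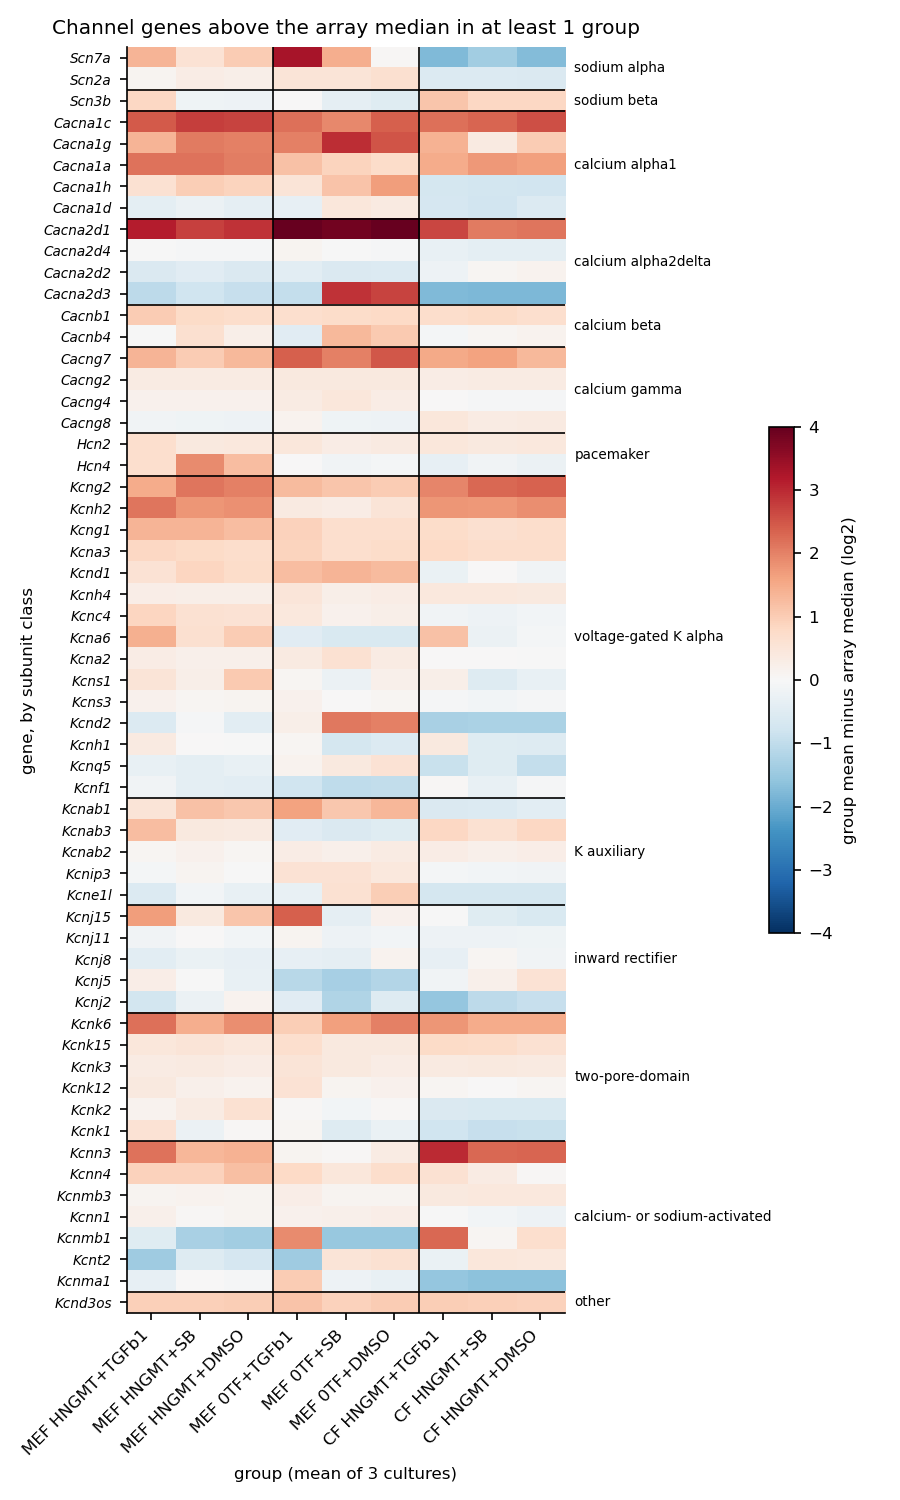
Group mean minus the array median (log2, colour) for the 59 channel genes above the median in at least 1 group, in rows by subunit class, with the 9 groups in columns. Cacna2d1 is the strongest row, at 4.07 over the median in 0TF+TGFβ1 MEFs, and Cacna2d3 and Kcnd2 are strong in 0TF+SB and 0TF+DMSO MEFs.

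The 10 brightest genes over the 9 groups were Cacna2d1, Cacna1c, Cacna1g, Kcng2, Cacng7, Kcnk6, Cacna1a, Kcnn3, Kcnh2 and Kcnd3os. Cacna2d1, the alpha2delta-1 subunit that brings calcium channel pores to the membrane, averaged between 9.49 and 11.91 over groups. Cacna1c, the pore of the cardiac L-type channel, lay between 9.57 and 10.66, and Cacna1g, a T-type pore, between 7.79 and 10.85. Probe sets differ in brightness for the same amount of RNA, so this order is one of signal and not of transcript number. Kcnd3os, a noncoding transcript beside Kcnd3, ranged from 8.33 to 8.99 and was called in no comparison. Of the 35 genes of a cardiac action potential list, 31 were measured, and 16 of these were above the array median in some group. Hcn2 and Kcnk3 were above it in all 9 groups and called in none of the comparisons between groups, and Kcnk2, Kcnj8 and Kcnj11 were above it in 5, 2 and 2 groups and also called in none. Kcnd3, Kcnip2, Kcnq1, Kcna5 and Kcnj12, which encode adult cardiac repolarizing channels and a partner, stayed below the array median in every group.

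A gene counted as called where limma gave a p below 0.05 after Benjamini-Hochberg adjustment across the 19938 genes and the log2 difference reached 0.58 (1.5-fold) in MEFs, or 0.32 in CFs, as in the methods of the study. By this rule 36 of the 130 genes were called in at least 1 of the 9 comparisons of 2 groups, and 35 of these were above the median in some group. The same share over all genes was not computed, so this count is no result about channel genes as a group.

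In MEFs without the factors (0TF), 4 genes rose and 8 fell with TGFβ1, where 4.21% of all genes rose and 6.19% fell. These shares are close to those of the channel genes (3.08% and 6.15%), so the count is no result about channel genes as a group, and what follows describes single genes. The 4 that rose included the pore and the beta1 subunit of the large-conductance calcium-activated (BK) potassium channel, while the beta subunit genes Kcnmb2, Kcnmb3 and Kcnmb4 were not called. Kcnmb1, the beta1 subunit, known from smooth muscle, had 10.03, 9.69 and 9.48 in 0TF+TGFβ1 MEFs, against 6.41, 6.38 and 6.31 in 0TF+DMSO MEFs. No culture of one group reached the range of the other (as for 57.6% of all genes), and the DMSO values were under the olfactory level of those arrays (6.96 to 7.01). The measured difference was 3.36 ± 0.09 (log2, SE, n = 3 each, adjusted p = 3.31e-15, limma), and Kcnmb1 was at least 6.74-fold higher. Kcnma1, the BK pore, had 8.72, 8.92 and 8.92 in 0TF+TGFβ1 MEFs, against 7.67, 7.57 and 7.53 in 0TF+DMSO MEFs, again without overlap and with a difference of 1.27 ± 0.08 (adjusted p = 1.91e-10). A second Kcnma1 probe set was dim and flat, and the mean of both probe sets gave 0.63 ± 0.06.

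Scn7a, an atypical sodium channel that responds to extracellular sodium rather than to voltage, had 11.19, 11.16 and 11.04 in 0TF+TGFβ1 MEFs, against 8.06, 7.92 and 7.78 in 0TF+DMSO MEFs. This was a 9.24-fold difference of 3.21 ± 0.10 (adjusted p = 3.64e-14), and its level with TGFβ1 was the second highest of any channel gene over the array median, after Cacna2d1. Glial markers had 0 of 5 genes above the array median in either group. In RefSeq's gene order on chromosome 2 Scn7a lies at the end of a run of sodium channel genes, Scn3a, Scn2a, Scn1a, Scn9a and Scn7a. Scn3a, Scn1a and Scn9a were below the array median in every group, and their TGFβ1 differences in 0TF MEFs were 0.10, 0.11 and 0.16, none of them called. Kcnj15, an inward rectifier, had 10.04, 10.34 and 10.32 in 0TF+TGFβ1 MEFs, against 8.23, 7.95 and 8.04 in 0TF+DMSO MEFs, a difference of 2.16 ± 0.10 (adjusted p = 2.62e-12).

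The 8 genes that fell were 4 calcium channel subunits and 4 potassium channel subunits of different classes. Cacna2d3, an alpha2delta subunit, had 6.86, 6.81 and 6.97 in 0TF+TGFβ1 MEFs, against 10.52, 10.59 and 10.61 in 0TF+DMSO MEFs. It thus lay under the olfactory level (6.99 to 7.04) in all TGFβ1 cultures and far above the array median in all DMSO cultures, at least 11.7-fold lower (measured difference -3.69 ± 0.05, adjusted p = 4.83e-19). Kcnd2, a pore of the transient outward current, had 8.01, 7.97 and 8.18 in 0TF+TGFβ1 MEFs, against 10.00, 9.80 and 9.88 in 0TF+DMSO MEFs (-1.84 ± 0.07, adjusted p = 2.54e-13). Kcnt2, a sodium-activated potassium channel, had 6.28, 6.44 and 6.48 in 0TF+TGFβ1 MEFs, against 8.61, 8.47 and 8.44 in 0TF+DMSO MEFs (measured difference -2.11 ± 0.09, adjusted p = 1.32e-12). With TGFβ1 it too was under the olfactory level, so that it was at least 2.79-fold lower. The other 5 fell by 0.75 to 1.56 on the log2 scale. They were Cacnb4, a calcium channel beta subunit, Kcne1l, a small auxiliary subunit, Cacna1h, a T-type pore, Kcnk6, a 2-pore-domain channel, and Cacna1d, an L-type pore of the sinoatrial node. In none of the 12 called genes did the cultures of the 2 groups overlap. This held for 57.6% of all genes, and a call already favours such genes, so it adds no support.

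**Figure D2:**
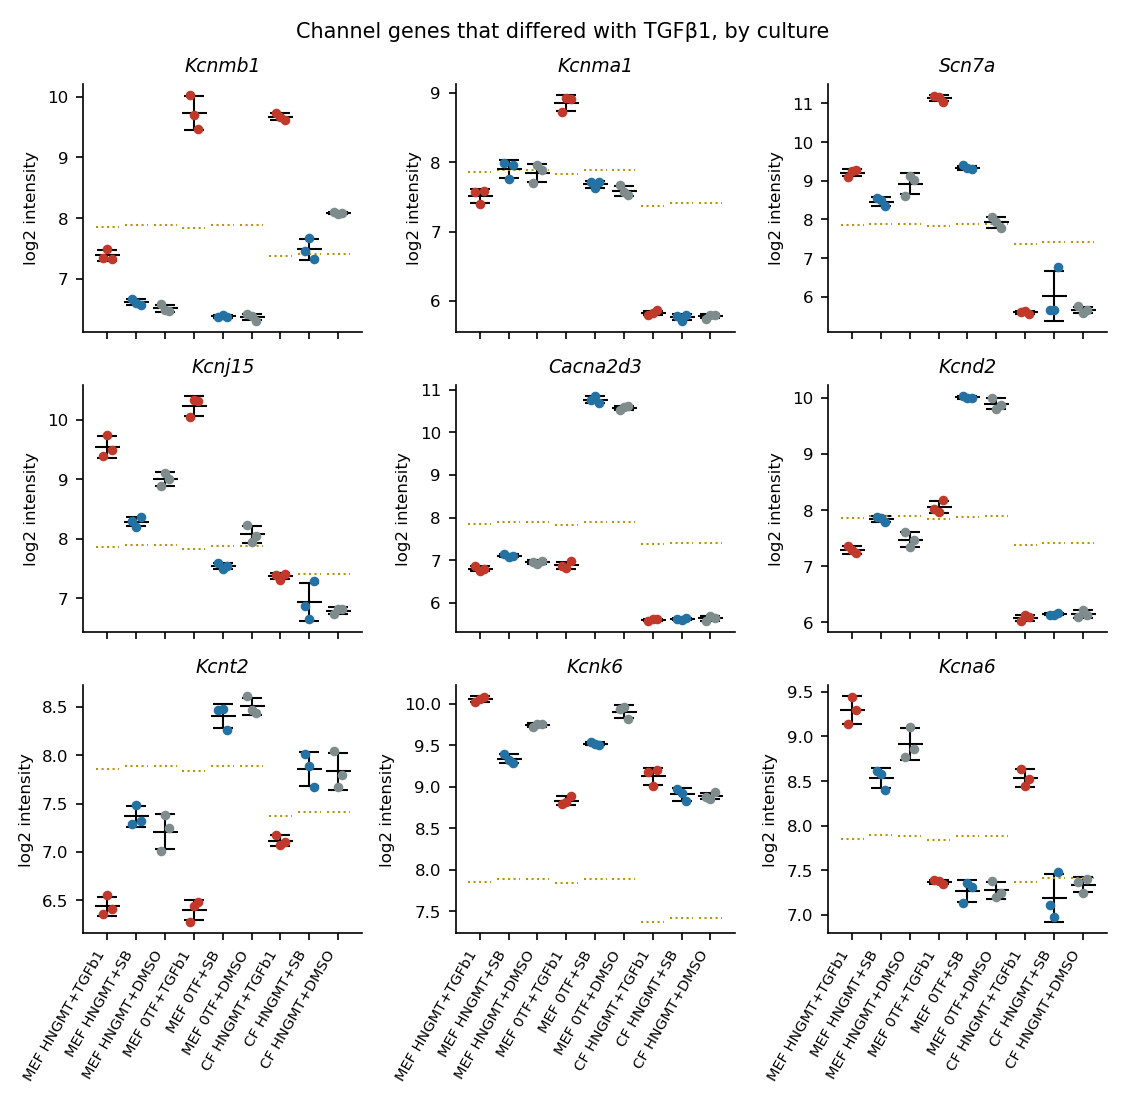
Log2 intensity of 9 channel genes in every culture (points, 3 per group), with group mean and SD (black) and the array median of the group (dotted line), TGFβ1 in red, SB in blue and DMSO in grey. Kcnmb1, Kcnma1, Scn7a and Kcnj15 are highest in 0TF+TGFβ1 MEFs, with Kcnmb1 also at a mean of 9.67 in HNGMT+TGFβ1 CFs, and Cacna2d3 and Kcnd2 stand far above the array median in 0TF+SB and 0TF+DMSO MEFs.

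The smooth muscle and pericyte marker list had a higher mean with TGFβ1 in these cells, at 9.10 to 9.18 in 0TF+TGFβ1 MEFs with 8 of 10 genes above the array median, against 8.74 to 8.80 with 6 of 10 in 0TF+DMSO MEFs. Its genes did not move together. Cnn1 averaged 12.14 with TGFβ1 and 9.14 with DMSO, but Mylk averaged 8.49 and 9.82, and Cspg4 9.58 and 10.21. The fibroblast list was at 12.52 to 12.64 in 0TF+TGFβ1 MEFs and 13.03 to 13.09 in 0TF+DMSO MEFs. The adipocyte list was at 7.67 to 7.76 in 0TF+TGFβ1 MEFs and 8.37 to 8.40 in 0TF+DMSO MEFs. Endothelial markers were at 7.30 to 7.36 in 0TF+TGFβ1 MEFs and 7.63 to 7.75 in 0TF+DMSO MEFs. Among them Tek (7.03 with TGFβ1, 9.47 with DMSO) and Erg (7.90 and 9.71) differed most. Emcn (6.66 and 6.32) and Pecam1 (7.13 and 7.01) were slightly higher with TGFβ1. The part of these marker lists in the results was not tested. Of 36 measured partners of channels that are no channel genes themselves, 0 rose and 3 fell with TGFβ1 in 0TF MEFs, namely Gem, an inhibitor of calcium channels (-0.94 ± 0.11), Fgf14, a sodium channel partner (-0.90 ± 0.05), and Gjc1, a gap junction protein (-0.68 ± 0.04).

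The sequence before the start is shown for the 3 genes that rose most with TGFβ1 in 0TF MEFs, and for the pacemaker gene Hcn4. Hcn4, described with HNGMT below, had the largest rise with HNGMT and SB, and all these genes lie in different classes. Each sequence is the 250 bases before the annotated start in RefSeq (GRCm38.p6), read 5′ to 3′ on the strand of the gene. Capitals mark matches on either strand to AGATAA (for the GATA family), AGGTGT (T-box factors), GTCTGNC (Smads), CACTTGA (NKX2-5), TGANTCA (AP-1), the MEF2 site or the CArG box of serum response factor.
Kcnmb1, chr11:33962763-33963012, plus strand: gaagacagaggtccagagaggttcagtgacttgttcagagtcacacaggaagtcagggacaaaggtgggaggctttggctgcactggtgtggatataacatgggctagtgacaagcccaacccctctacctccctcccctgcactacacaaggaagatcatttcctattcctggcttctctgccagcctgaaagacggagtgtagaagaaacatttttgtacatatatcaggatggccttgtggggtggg
Scn7a, chr2:66784911-66785160, minus strand: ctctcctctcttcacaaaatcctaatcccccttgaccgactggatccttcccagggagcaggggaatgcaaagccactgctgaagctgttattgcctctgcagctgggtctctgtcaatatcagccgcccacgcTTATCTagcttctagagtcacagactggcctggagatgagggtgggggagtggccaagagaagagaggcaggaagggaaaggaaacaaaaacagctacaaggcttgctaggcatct
Kcnj15, chr16:95257308-95257557, plus strand: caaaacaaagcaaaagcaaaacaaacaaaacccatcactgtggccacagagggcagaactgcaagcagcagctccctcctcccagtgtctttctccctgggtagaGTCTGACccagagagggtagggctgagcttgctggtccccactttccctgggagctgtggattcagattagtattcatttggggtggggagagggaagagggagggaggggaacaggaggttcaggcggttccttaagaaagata
Hcn4, chr9:58822699-58822948, plus strand: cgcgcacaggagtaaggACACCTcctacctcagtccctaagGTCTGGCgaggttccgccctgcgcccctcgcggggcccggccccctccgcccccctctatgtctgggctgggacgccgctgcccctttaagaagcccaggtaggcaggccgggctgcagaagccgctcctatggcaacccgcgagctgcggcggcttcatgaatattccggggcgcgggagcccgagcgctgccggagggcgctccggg
Kcnmb1 held no match, Scn7a 1 match to AGATAA (as TTATCT), Kcnj15 1 to GTCTGNC, and Hcn4 1 to AGGTGT (as ACACCT) and 1 to GTCTGNC. Such letters are common: of 32851 windows of 300 bases around gene starts, 15.2% held GTCTGNC, 13.7% AGGTGT and 11.2% AGATAA, and of the 134 windows of 99 channel genes with one, 19.4%, 14.2% and 3.73% did. These windows run past the start, unlike the 250 bases shown, and in its window Kcnj15 also held AGATAA, from 5 bases before the start. No match overlapped another in the sequences shown. A match is a run of letters and not a measured site.

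With TGFβ1 in HNGMT MEFs, 4 channel genes rose and 5 fell, where 2.23% of all genes rose and 3.54% fell. Scn3b, a sodium channel beta subunit, had 8.61, 8.84 and 8.62 in HNGMT+TGFβ1 MEFs, against 7.62, 7.76 and 7.71 in HNGMT+DMSO MEFs (0.99 ± 0.06, adjusted p = 4.08e-10). The others that rose were Kcnab3, a beta subunit of Kv1 channels (0.85 ± 0.06), Kcnn3, a small-conductance calcium-activated potassium channel (0.76 ± 0.07), and Kcnmb1 (0.87 ± 0.09), which stayed under the array median in both groups and under the olfactory level with DMSO (at least 0.43 higher). Kcnj2, the main pore of the cardiac inward rectifier current, had 7.06, 7.21 and 7.14 in HNGMT+TGFβ1 MEFs, against 7.88, 8.14 and 8.08 in HNGMT+DMSO MEFs, with no overlap, as for 41.8% of all genes (-0.90 ± 0.09, adjusted p = 2.72e-07). Cacna1g fell by 0.67, Hcn4 by 0.60 and Kcnab1, another Kv1 beta subunit, by 0.60 on the log2 scale, and Kcnt2, under the array median in both groups, by a measured 0.77 (at least 0.27). The calls of Hcn4 and Kcnab1 were lost under quantile normalization and median centring, where their differences (-0.57 to -0.58) passed just under the 1.5-fold limit. The same happened to both without HNGMT+DMSO replicate 2 (Hcn4 -0.53, Kcnab1 -0.57) and to Hcn4 without HNGMT+TGFβ1 replicate 1 (-0.58). The fibroblast list was at 11.95 to 12.04 in HNGMT+TGFβ1 MEFs and 12.59 to 12.60 in HNGMT+DMSO MEFs, and the cardiomyocyte list at 9.63 to 9.68 in HNGMT+TGFβ1 MEFs and 9.81 to 9.86 in HNGMT+DMSO MEFs. The smooth muscle list was at 9.67 to 9.70 in HNGMT+TGFβ1 MEFs and 9.52 to 9.59 in HNGMT+DMSO MEFs, and the neuronal list at 7.43 to 7.48 (3 of 11 genes above the array median) in HNGMT+TGFβ1 MEFs and 7.24 to 7.31 (1 of 11) in HNGMT+DMSO MEFs. Their part in these results was not tested.

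For 18 channel genes the TGFβ1 effect itself differed between HNGMT and 0TF MEFs by the interaction term, 10 with a positive and 8 with a negative difference (4.68% and 2.77% of all genes). The 4 genes that rose with TGFβ1 in 0TF MEFs were among the negative ones: Scn7a differed by -2.92 ± 0.15, Kcnmb1 by -2.49 ± 0.13, Kcnj15 by -1.62 ± 0.13 and Kcnma1 by -1.59 ± 0.11. All 8 that fell in 0TF MEFs were among the positive ones, from Cacna2d3 at 3.54 ± 0.07 to Cacna1d at 0.67 ± 0.08. The interaction term subtracts the 0TF difference by which these genes were called. Their signs are thus largely set by that choice and are no separate result. For 5 of the 8 that fell (Cacna2d3, Kcnd2, Kcnt2, Kcne1l and Cacna1d) all HNGMT+DMSO cultures already lay under the array median. Kcnmb1, Cacna2d3 and Kcnt2 each had a group under the olfactory level, so the sizes of their interaction differences are not fixed by the data. Cacna2d3 lay at that level in HNGMT+DMSO MEFs already, so a further fall with TGFβ1 could not be read there. Kcnk6 differed by 1.39 ± 0.06: its TGFβ1 difference was 0.31 in HNGMT MEFs and -1.07 in 0TF MEFs. Kcnn3 (1.03) and Kcnab3 (0.89) were positive, and Kcnj2 (-0.91), Kcnab1 (-0.80), Kcng2 (-0.76) and Hcn4 (-0.65) negative. The Hcn4 difference was -0.57 and no longer called without HNGMT+DMSO replicate 2.

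**Figure D3:**
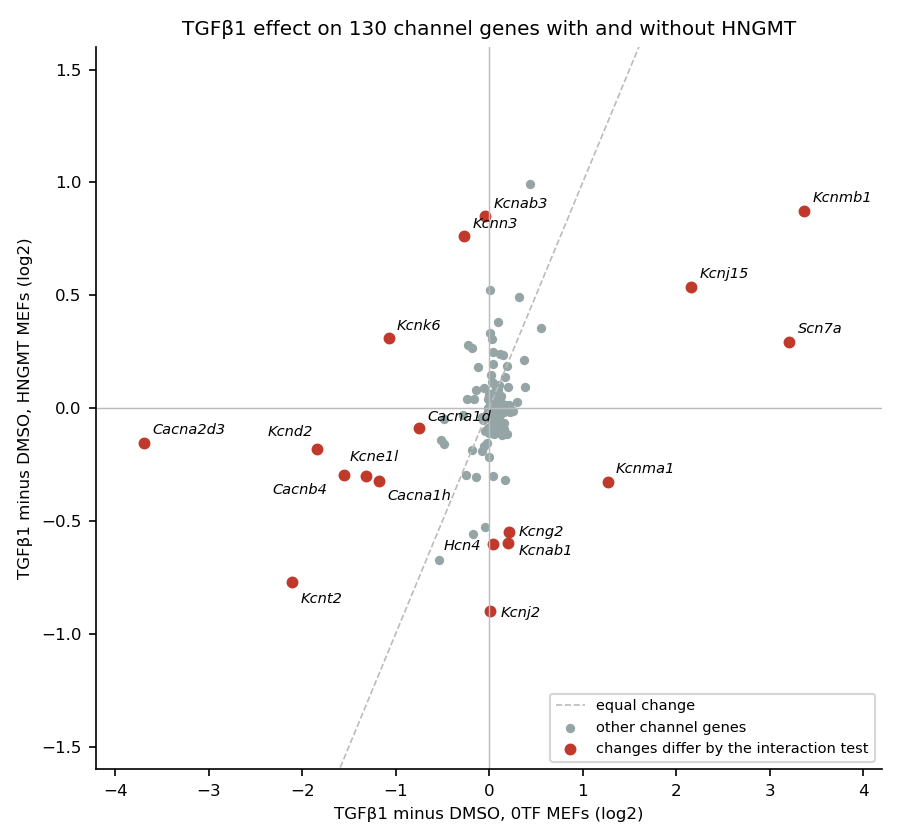
Each point is 1 of the 130 channel genes, with its TGFβ1 minus DMSO difference (log2) in 0TF MEFs on the x axis and in HNGMT MEFs on the y axis, whose scale is narrower, and the dashed line marks equal change. The 18 labelled genes in red differed by the interaction test, with Kcnmb1 and Scn7a on the right and Cacna2d3 on the left.

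HNGMT gave 22 to 25 calls of channel genes, depending on the molecule. With DMSO, 12 channel genes rose and 10 fell in HNGMT MEFs relative to 0TF MEFs, where 4.56% of all genes rose and 4.51% fell. In either direction 16.9% of the channel genes were called against 9.08% of all genes. With no fold limit the order was reversed, at 35.4% of the channel genes against 40.5% of all genes. The count is therefore no result about channel genes as a group. With SB 14 rose and 11 fell (5.04% and 4.81% of all genes), and with TGFβ1 11 rose and 11 fell (6.37% and 3.88%). 7 genes rose with all 3 molecules (Cacna1a, Hcn4, Kcna6, Kcnab3, Kcnh2, Kcnj5 and Kcnn3), and 3 fell with all 3 (Cacna2d1, Cacng7 and Kcnd2). The shares of all genes that did so were not computed.

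Hcn4, the main pacemaker channel of the sinoatrial node, had 8.96, 9.28 and 9.15 in HNGMT+DMSO MEFs, against 7.78, 7.92 and 7.70 in 0TF+DMSO MEFs. Its 0TF values lay around the array median and all HNGMT values over it, a 2.52-fold difference (1.33 ± 0.09, adjusted p = 6.4e-10). With SB the difference was 2.05 ± 0.09, and with TGFβ1 0.69 ± 0.09. Kcnh2, the pore of the rapid delayed rectifier current, had 9.67, 9.76 and 9.69 in HNGMT+DMSO MEFs, against 8.44, 8.34 and 8.47 in 0TF+DMSO MEFs, without overlap, as for 46.7% of all genes (1.29 ± 0.08, adjusted p = 2.06e-10). Cacna1a, a P/Q-type calcium channel pore known from neurons, had 9.95, 9.98 and 9.91 in HNGMT+DMSO MEFs, against 8.73, 8.54 and 8.63 in 0TF+DMSO MEFs (1.32 ± 0.05, adjusted p = 5.12e-13). Neuronal markers were at 7.24 to 7.31 in HNGMT+DMSO MEFs, with 1 of 11 genes above the array median, and at 7.46 to 7.50 with 2 of 11 in 0TF+DMSO MEFs.

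Kcna6, a voltage-gated potassium pore of the Kv1 family, had the largest rise with DMSO, with 8.77, 9.11 and 8.86 in HNGMT+DMSO MEFs, against 7.38, 7.20 and 7.24 in 0TF+DMSO MEFs (1.64 ± 0.09, adjusted p = 5.51e-11). Kcnn3 rose by 1.08 with DMSO, 1.28 with SB and 2.10 with TGFβ1, and Kcnab3 by 0.84, 0.96 and 1.73. Kcnj5, a subunit of the atrial potassium channel opened by acetylcholine, had 7.95, 8.41 and 7.98 in HNGMT+TGFβ1 MEFs, against 6.77, 6.86 and 6.54 in 0TF+TGFβ1 MEFs (measured difference 1.39 ± 0.10, adjusted p = 1.99e-09), and with DMSO (0.88) and SB (1.31) it was under the array median in both groups. All 0TF values of Kcnj5 were under the olfactory level, and its lower limits were 1.09 with TGFβ1, 0.61 with DMSO and 0.90 with SB. Its usual partner Kcnj3 was under the median in every group.

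Further genes were called with 1 or 2 of the molecules. Kcng2, a subunit that modifies other potassium channels, rose with DMSO (1.00 ± 0.08) and SB (1.03 ± 0.08), and Kcnj2 with DMSO (0.67 ± 0.09) and, under the array median, with SB (0.96, at least 0.69). With DMSO Kcns1, a modifying subunit, rose by 0.84. With SB Cacna1c had 10.67, 10.62 and 10.70 in HNGMT+SB MEFs, against 9.83, 9.82 and 9.81 in 0TF+SB MEFs (0.84 ± 0.04, adjusted p = 1.42e-11). Its HNGMT difference was 0.33 with DMSO and 0.28 with TGFβ1, under the fold limit. The SB effect on it was 0.51 ± 0.06 larger in HNGMT than in 0TF MEFs (adjusted p = 1.44e-05), also under the fold limit. Kcng1 (0.70), Kcnh1 (0.72) and the dim Kcnf1 (0.65, at least 0.54) also rose with SB. With TGFβ1 Kcnk6 (1.22), Scn3b (0.84) and the dim Kcnf1 (0.68) rose, and Kcna4 was called with both group means under the olfactory level of the 0TF+TGFβ1 arrays, so that no size is given. Scn7a and Kcnj15 changed side: the Scn7a difference was 1.00 with DMSO, -0.88 with SB and -1.92 with TGFβ1, and that of Kcnj15 was 0.93, 0.75 and -0.69, all called. With SB the adipocyte marker list was at 8.49 to 8.62 in HNGMT MEFs, with 4 of 7 genes above the array median. In 0TF+SB MEFs it was at 11.36 to 11.44 with 7 of 7. Its part in the results with SB was not tested.

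**Figure D4:**
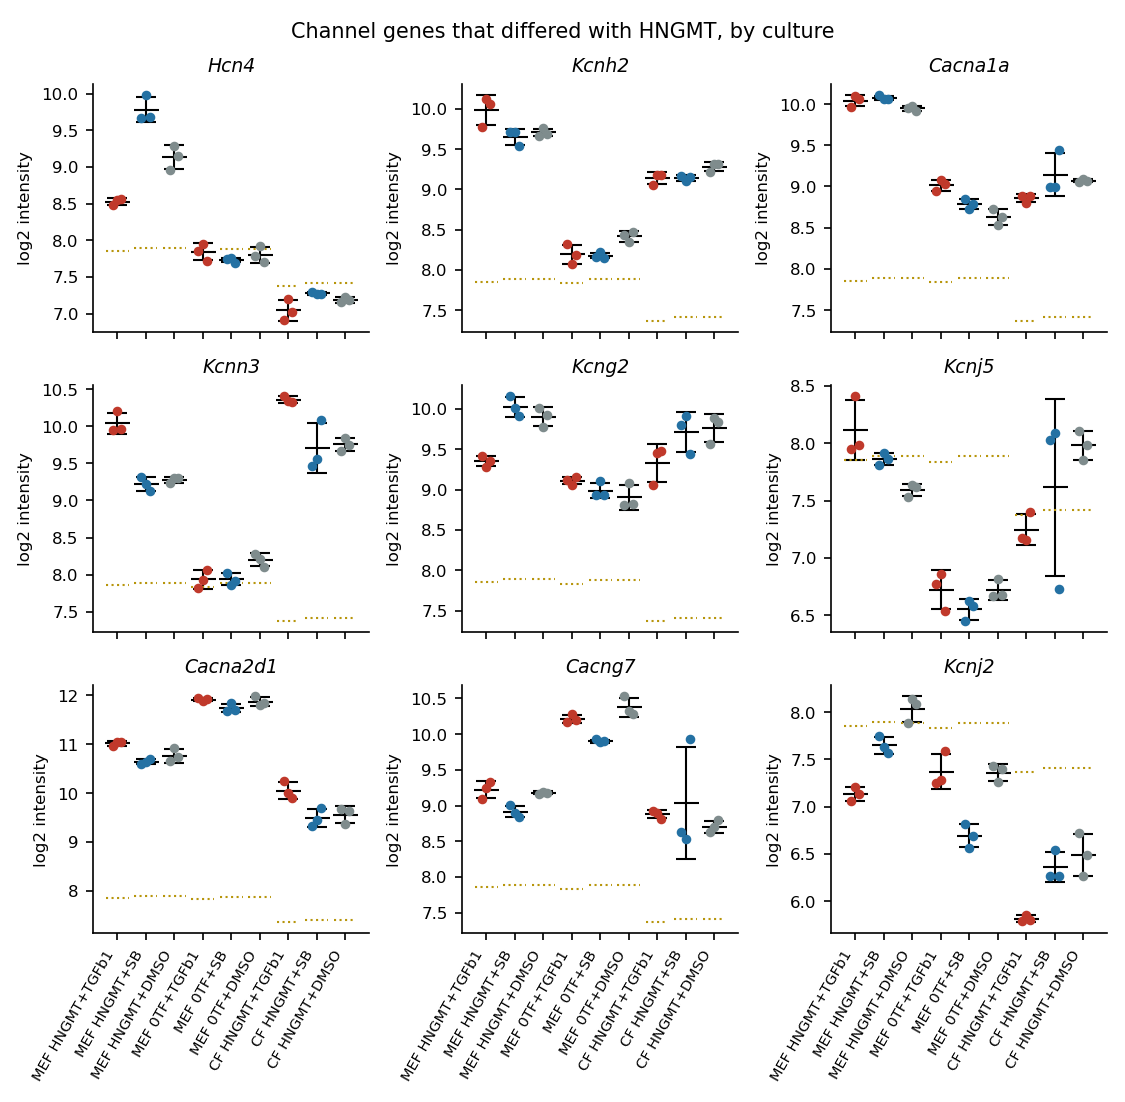
Log2 intensity of 9 channel genes in every culture (points, 3 per group), with group mean and SD (black) and the array median of the group (dotted line), TGFβ1 in red, SB in blue and DMSO in grey. Hcn4, Kcnh2, Cacna1a and Kcnn3 are higher in the HNGMT MEF groups than in the 0TF groups with the same molecule, and Cacna2d1 and Cacng7 lower.

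Among the genes that fell with HNGMT, Cacna2d3 had 6.96, 6.91 and 6.99 in HNGMT+DMSO MEFs, against 10.52, 10.59 and 10.61 in 0TF+DMSO MEFs. All HNGMT cultures were under the array median and within the range of the olfactory level of those arrays or just under it, so that the size of the measured difference rests on a group at that level (-3.62 ± 0.05, adjusted p = 1.12e-18), and with SB the difference was -3.66. With TGFβ1 both groups were dim. Kcnd2 had 7.61, 7.34 and 7.47 in HNGMT+DMSO MEFs, against 10.00, 9.80 and 9.88 in 0TF+DMSO MEFs (-2.42 ± 0.07, adjusted p = 9.09e-15), and it fell by 2.17 with SB and by 0.76 with TGFβ1. Cacna2d1, the brightest channel gene, had 10.64, 10.92 and 10.73 in HNGMT+DMSO MEFs, against 11.97, 11.79 and 11.84 in 0TF+DMSO MEFs (-1.10 ± 0.06, adjusted p = 1.39e-10), and its second probe set gave -1.05.

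Cacng7, of the calcium channel gamma family, fell by 1.20 with DMSO, 0.99 with SB and 0.99 with TGFβ1. Kcnt2, Kcne1l, Kcnq5, Cacnb4 and Cacna1d fell both with DMSO (by 0.71 to 1.30) and with SB (by 0.65 to 1.04). Cacna1h fell with DMSO (-0.75), and Cacna1g with SB (-0.88) and TGFβ1 (-0.64). With TGFβ1 the genes that had risen in 0TF cells were lower in HNGMT MEFs: Kcnmb1 had 7.34, 7.49 and 7.33 in HNGMT+TGFβ1 MEFs, against 10.03, 9.69 and 9.48 in 0TF+TGFβ1 MEFs (-2.35 ± 0.09, adjusted p = 3.64e-13), and Kcnma1 fell by 1.33. Kcnab1 (-1.05), Kcnd1 (-0.65) and Kcnip3 (-0.63) fell with TGFβ1 as well, Kcnip3 to -0.56 and out of the call without 0TF+TGFβ1 replicate 2 or HNGMT+TGFβ1 replicate 2.

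On the cardiac action potential list, 4 rose (Hcn4, Kcnh2, Kcnj5 and Kcnj2), 4 fell (Kcnd2, Cacna2d1, Cacna1h and Cacna1d) and 23 were not called with DMSO, with a median of 0.02 over the list and -0.01 over all genes. The cardiomyocyte marker list moved with HNGMT, at 9.81 to 9.86 in HNGMT+DMSO MEFs with 7 of 10 genes above the array median, against 7.58 to 7.71 with 3 of 10 in 0TF+DMSO MEFs, and the smooth muscle list was at 9.52 to 9.59 in HNGMT+DMSO MEFs and 8.74 to 8.80 in 0TF+DMSO MEFs. The fibroblast list was at 12.59 to 12.60 in HNGMT+DMSO MEFs and 13.03 to 13.09 in 0TF+DMSO MEFs. Their part in the channel results was not tested. The skeletal muscle channel list had 5 measured genes and none called in any of the 12 comparisons. Of the channel partners, Gja5, the atrial gap junction protein (1.82 ± 0.06), Akap5, a kinase anchor (2.52 ± 0.10), Rrad, an inhibitor of calcium channels (0.79 ± 0.08), and Nedd4l, a ubiquitin ligase (0.59 ± 0.05), rose with HNGMT and DMSO, and Ank2, an anchor of channels (-1.02 ± 0.05), and Fgf14 (-0.97 ± 0.05) fell.

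Scn2a, a sodium channel pore known from neurons, depended on the probe set. It had 14 probe sets, and the one with the highest mean differed by -0.40 ± 0.07 with HNGMT and DMSO and by -0.18 ± 0.07 with TGFβ1 in 0TF MEFs, and was not called. The other 13 were all lower, by 0.29 to 1.63 with HNGMT and by 0.11 to 1.39 with TGFβ1. The mean of all 14 was called in both comparisons, at -0.77 ± 0.05 with HNGMT and DMSO (adjusted p = 8.75e-10) and at -0.62 ± 0.05 with TGFβ1 in 0TF MEFs (adjusted p = 1.4e-08). The plot of its probe sets shows that the 2 brightest in 0TF+DMSO MEFs differed most, while the one that stood for the gene, the fourth brightest there, had the second smallest difference in both comparisons.

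**Figure D5:**
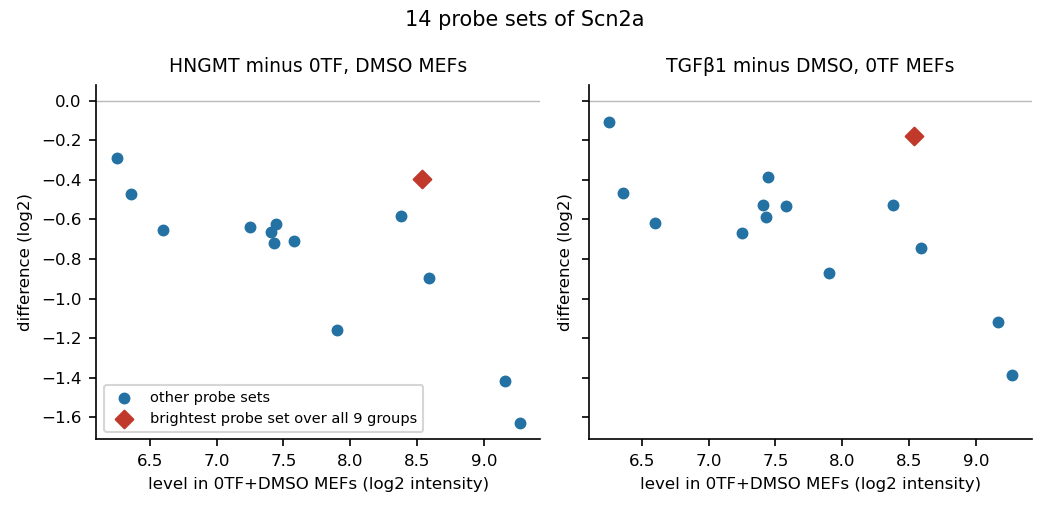
Each point is 1 of the 14 probe sets of Scn2a, with its mean level in 0TF+DMSO MEFs (log2 intensity) on the x axis and its difference (log2) with HNGMT (left) or TGFβ1 (right) on the y axis. The probe set that stood for the gene (red) differed by -0.40 and -0.18, and the lowest reached -1.63 and -1.39.

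SB moved few channel genes. In 0TF MEFs, 1 rose and 1 fell, where 1.26% of all genes rose and 1.13% fell. The one that rose was Scn7a, with 9.40, 9.32 and 9.30 in 0TF+SB MEFs, against 8.06, 7.92 and 7.78 in 0TF+DMSO MEFs (1.42 ± 0.10, adjusted p = 1.19e-08). It was thus higher than with DMSO both with SB, which blocks the TGFβ receptor, and with TGFβ1, which activates it. The adipocyte marker list was at 11.36 to 11.44 in 0TF+SB MEFs with 7 of 7 genes above the array median, against 8.37 to 8.40 with 3 of 7 in 0TF+DMSO MEFs, and its part in the Scn7a result was not tested. Kcnj2 fell by a measured 0.67 (at least 0.40), under the array median in both groups and under the olfactory level with SB.

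In HNGMT MEFs 1 channel gene rose and 2 fell with SB (0.391% and 0.431% of all genes). Hcn4 had 9.67, 9.98 and 9.69 in HNGMT+SB MEFs, against 8.96, 9.28 and 9.15 in HNGMT+DMSO MEFs, without overlap, as for 20.8% of all genes. The difference of 0.65 ± 0.09 was close to the fold limit, and it passed under it without HNGMT+DMSO replicate 1 (0.56) or HNGMT+SB replicate 2 (0.55). Cardiomyocyte markers were at 10.27 to 10.65 in HNGMT+SB MEFs and 9.81 to 9.86 in HNGMT+DMSO MEFs, and their part in the Hcn4 difference was not tested. Kcns1 had 8.21, 8.04 and 8.13 in HNGMT+SB MEFs, against 8.94, 8.94 and 8.96 in HNGMT+DMSO MEFs (-0.82 ± 0.06, adjusted p = 4.16e-08), and Kcnj15 had 8.30, 8.20 and 8.36 in HNGMT+SB MEFs, against 8.88, 9.11 and 9.01 in HNGMT+DMSO MEFs (-0.71 ± 0.10, adjusted p = 7.31e-05). Across the molecules Hcn4 in HNGMT MEFs thus averaged 9.78 with SB, 9.13 with DMSO and 8.53 with TGFβ1, and neither neighbouring pair overlapped (as for 20.8% of all genes with SB and 41.8% with TGFβ1). In HNGMT CFs Hcn4 was under the array median with 5 µM SB (7.28) and with DMSO (7.19). The difference there was 0.09, and Hcn4 was called in CFs neither with SB nor with TGFβ1. By the interaction term, 3 channel genes responded differently to SB with and without HNGMT (2 positive and 1 negative, 0.893% and 1.06% of all genes): Hcn4 (0.72 ± 0.12, adjusted p = 0.000704), Cacna1h (0.62 ± 0.08) and Scn7a (-1.88 ± 0.15). Without 0TF+DMSO replicate 3 or HNGMT+DMSO replicate 1 there were 5 such genes, and without 0TF+DMSO replicate 1 Cacna1h (0.58) was not called.

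In HNGMT CFs TGFβ1 raised 6 channel genes and lowered 3, where 3.11% of all genes rose and 2.2% fell. Kcnmb1 had 9.73, 9.67 and 9.62 in HNGMT+TGFβ1 CFs, against 8.11, 8.07 and 8.08 in HNGMT+DMSO CFs (1.59 ± 0.08, adjusted p = 3.9e-05), here above the array median in both groups. Its pore partner Kcnma1 was under the median in all CF groups. Kcna6 had 8.64, 8.44 and 8.53 in HNGMT+TGFβ1 CFs, against 7.37, 7.25 and 7.40 in HNGMT+DMSO CFs (1.20 ± 0.12, adjusted p = 0.00105). Kcnh1, a voltage-gated potassium pore of the EAG family, rose by 0.87 ± 0.10, Kcnn3 by 0.60 ± 0.15, the dim Kcnj15 by 0.57 ± 0.14 and Kcns1 by 0.49 ± 0.05. Kcnt2 had 7.17, 7.07 and 7.10 in HNGMT+TGFβ1 CFs, against 8.04, 7.67 and 7.79 in HNGMT+DMSO CFs (-0.72 ± 0.11, adjusted p = 0.00676), and Cacna2d2 fell by 0.39. Kcnj2 was called as lower with both group means under the olfactory level of the HNGMT+TGFβ1 arrays, so that no size is given. None of the 9 overlapped between the groups, as for 32.9% of all genes, and a call already favours such genes. Kcnmb1 and Kcnt2 were called with TGFβ1 in all 3 settings, 0TF MEFs, HNGMT MEFs and HNGMT CFs, each time in the same direction. Kcnn3 lost its CF call in 7 of the 9 fits that left out a culture (adjusted p 0.0543 to 0.146) and under quantile normalization (0.0501), and Cacna2d2 in 5 of the 9 (0.0567 to 0.147).

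Without the CF HNGMT+SB replicate 3, which enters the estimate of the spread, 15 channel genes were called with TGFβ1 (4.97% and 5.8% of all genes rose and fell), and 5 were called without HNGMT+DMSO replicate 3 or HNGMT+TGFβ1 replicate 3. The 6 added without the SB culture were Kcnn4 (0.51), Cacna2d1 (0.49) and Cacna1g (0.34), which rose, and Cacna1c (-0.41), Kcng2 (-0.43) and Kcnj5 (-0.74), which fell. Endothelial markers were at 10.02 to 10.05 in HNGMT+TGFβ1 CFs and 10.70 to 10.75 in HNGMT+DMSO CFs, and smooth muscle markers at 9.58 to 9.60 in HNGMT+TGFβ1 CFs and 9.15 to 9.23 in HNGMT+DMSO CFs. Cardiomyocyte markers were at 9.40 to 9.44 in HNGMT+TGFβ1 CFs and 9.78 to 9.79 in HNGMT+DMSO CFs. Their part in these results was not tested.

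With SB, at a dose 10 times that of the MEFs, 0 channel genes rose and 1 fell in CFs (0.0451% and 0.196% of all genes). Kcnmb1 had 7.46, 7.67 and 7.32 in HNGMT+SB CFs, against 8.11, 8.07 and 8.08 in HNGMT+DMSO CFs (-0.60 ± 0.08, adjusted p = 0.0318). It was lower in all 3 SB cultures. The call was lost in 7 of the 9 fits that left out a single culture (adjusted p 0.0764 to 0.207), and without replicate 3 of HNGMT+SB it was -0.52 ± 0.06 (adjusted p = 0.00484), with Cacna1g called beside it (-0.42 ± 0.04). The smooth muscle list was at 8.96, 8.98 and 8.73 in HNGMT+SB CFs and 9.15 to 9.23 in HNGMT+DMSO CFs, and its part in the Kcnmb1 result was not tested. As the SB doses differ between CFs and MEFs, their SB effects are not compared.

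TGFβ1 was given at the same dose to both cell types, and its effect differed between HNGMT CFs and HNGMT MEFs for 8 channel genes, 5 with a positive and 3 with a negative difference (2.68% and 1.7% of all genes). Kcns1 differed by 1.05 ± 0.08 (adjusted p = 2.36e-09), with a TGFβ1 effect of 0.49 in CFs and -0.56 in MEFs. Cacna1g differed by 1.01 ± 0.15, with an effect of 0.34 in CFs and -0.67 in MEFs. Kcna6 (0.82), Kcnn4 (0.81), a calcium-activated potassium channel, and Kcnmb1 (0.71) were also positive. Kcnj5 differed by -1.26 ± 0.31, with an effect of -0.74 in CFs and 0.52 in MEFs, and Kcnab3 (-0.89) and Scn3b (-0.78) were negative. The CF and MEF cultures differ in age, tissue and array median together, so their parts in these differences cannot be told apart.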

How the data were processed

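The authors hybridized RNA to Affymetrix Mouse Gene ST arrays and deposited log2 intensities of 35556 probe sets. The submitters' processing notes name MAS5, and the paper adds PartekGS. The normalization is not given in the sources used here. The deposited log2 values were used unchanged. Probe sets with 1 gene symbol (21789, with 1621 others holding several and 12146 none) were reduced to 19938 genes by the highest mean.

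Tests used lmFit and eBayes (limma 3.58.1, R 4.3.3), with the 18 MEF arrays and the 9 CF arrays fitted apart (12 and 6 residual degrees of freedom) and all 27 arrays for the difference between cell types (18). P-values were adjusted over all genes, and the fit was tested on simulated data. Genes were named where called, without overlap between cultures and above the array median in a group compared, up to 12 in each direction. Members of the action potential list above the median and the 10 brightest genes were also named. The members, gene lists and markers were chosen with earlier results of these data known. Promoter motifs were chosen after the values were seen. Alternatives varied the fit, block, filter, fold limit, normalization, probe set summary, variance model, weights and each culture. Python 3.11.15 drew the figures.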

Additional observations from a re-analysis of the deposited data

Results flagged for a closer look

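Results are listed here where an effect differed between groups by a test of the difference itself (an interaction term in limma, adjusted p under 0.05 and a fold of at least 1.5). Groups of 3 cultures are too small for the outlier test, which was not run.

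The SB effect in HNGMT MEFs minus that in 0TF MEFs was 0.72 for Hcn4, 0.62 for Cacna1h and -1.88 for Scn7a.

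The TGFβ1 effect in HNGMT MEFs minus that in 0TF MEFs was positive for Cacna2d3 (3.54), Kcnd2 (1.66), Kcnk6 (1.39), Kcnt2 (1.34), Cacnb4 (1.26), Kcnn3 (1.03), Kcne1l (1.01), Kcnab3 (0.89), Cacna1h (0.86) and Cacna1d (0.67). It was negative for Scn7a (-2.92), Kcnmb1 (-2.49), Kcnj15 (-1.62), Kcnma1 (-1.59), Kcnj2 (-0.91), Kcnab1 (-0.80), Kcng2 (-0.76) and Hcn4 (-0.65).

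The TGFβ1 effect in HNGMT CFs minus that in HNGMT MEFs was 1.05 for Kcns1, 1.01 for Cacna1g, 0.82 for Kcna6, 0.81 for Kcnn4, 0.71 for Kcnmb1, -1.26 for Kcnj5, -0.89 for Kcnab3 and -0.78 for Scn3b. Kcnmb1, Cacna2d3 and Kcnt2 each had a group under the olfactory receptor level, so the sizes of their differences are not fixed by the data. Cacna2d3 lay at that level in HNGMT+DMSO MEFs already, so a further fall with TGFβ1 could not be read there.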

How the results depend on the processing

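The 123 results for single genes named in a comparison kept their direction under all alternatives, and 38 of 3436 repeats lost the call, 28 of them by leaving out a culture. Counts of channel genes moved by more than 1.5 times with these settings. With no fold limit the counts were 23 (SB in 0TF MEFs), 13 (SB in HNGMT MEFs), 42 (TGFβ1 in 0TF MEFs), 45 (TGFβ1 in HNGMT MEFs), 46, 50 and 56 (HNGMT with DMSO, SB and TGFβ1), 12 and 41 (SB and TGFβ1 effect, HNGMT minus 0TF) and 22 (TGFβ1 effect, CFs minus MEFs). In the same order, the shares of the channel genes were 17.7%, 10%, 32.3%, 34.6%, 35.4%, 38.5%, 43.1%, 9.23%, 31.5% and 16.9%. Those of all genes were 16.6%, 7.38%, 46.9%, 35.8%, 40.5%, 41.8%, 44%, 8.43%, 31.3% and 15.9%, so these counts are no result about channel genes as a group. With the lower CF fold limit in MEFs the counts were 12, 9, 20 and 20 for the treatments in that order, 38 for HNGMT with DMSO, and 10, 30 and 19 for the differences. In one fit of all 27 arrays SB in CFs gave 2 and TGFβ1 in CFs 15, and with array weights these were 2 and 17, and the SB difference between HNGMT and 0TF MEFs gave 5. Shares of all genes were not computed for the lower fold limit, the one fit or the weights.

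With the replicate number as a block, SB in CFs gave 0 (Kcnmb1, adjusted p 0.0936), and no other count moved by more than 1.5 times. In CFs Kcnn3 (adjusted p 0.0663) and Cacna2d2 (0.0505) lost their TGFβ1 calls with the block. Deviations of arrays with the same number correlated between -0.454 and 0.585 in MEFs and between -0.248 and 0.651 in CFs, so the numbers were not taken to pair cultures. An array correlated best with one of its own number in 7 of 18 MEF and 5 of 9 CF arrays. Leaving out 1 culture gave 0 to 2 calls for SB in CFs, 5 to 15 for TGFβ1 in CFs, and 2 to 5 for the SB difference between HNGMT and 0TF MEFs. The cause of these moves was not tested. The normalization of the deposited values is not given in the sources used here. Of the 130 genes, 71 were above the array median in no group. Of the 130, 44 were above the olfactory level in no group, and these have only an upper range.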
